A study of Homo sapiens with 6 samples.

Results

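The genes described here are 9 genes of the NRF2 antioxidant pathway: GCLM, GCLC, SLC7A11, TXNRD1, SRXN1, NQO1, HMOX1, ME1 and NFE2L2, which encodes NRF2 itself. They were chosen by gene symbol, each from the array feature annotated with that symbol alone. All 9 were measured, each by 1 feature, among 16704 genes with a feature of their own. The arrays measured cytoplasmic RNA of LNCaP, a prostate cancer line that responds to androgen. In the MBD2 knockdown group 3 stably transfected clones carried a short hairpin RNA directed at MBD2, whose protein product recognises methylated CpG dinucleotides, and in the scrambled control group 3 stable clones carried a scrambled hairpin in the same kind of vector. All 6 clones had been selected by neomycin resistance, and each was hybridised to 1 Affymetrix human Gene ST array. Clonal lines can differ from each other for reasons other than the hairpin, and 3 clones per group limit the precision of every value below.

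NRF2 is a transcription factor that is held at a low level by KEAP1, which hands it to a ubiquitin ligase for breakdown. Oxidants and electrophiles modify KEAP1, NRF2 then builds up, pairs with a small MAF protein and binds antioxidant response elements near its target genes. The targets supply glutathione, reduced thioredoxin and NADPH, and detoxify quinones and haem. In prostate cancer cells these systems handle reactive oxygen species, and they are widely used as a readout of NRF2 activity.

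Values are log2 expression values as the authors deposited them, and differences are knockdown minus control on the log2 scale. MBD2, the targeted gene, had log2 values of 7.68, 7.84 and 7.81 in knockdown clones 1, 2 and 3, against 8.73, 9.24 and 9.20 in control clones 1, 2 and 3. All knockdown clones lay below all controls (log2 fold change -1.28, SE 0.14, limma adjusted p = 0.111). Of the luminal prostate markers 6 of 10 were measured, with mean log2 values of 8.66 to 10.79, while 4 basal, 5 stromal and 6 leukocyte or endothelial markers had means of 4.59 to 6.03, 2.39 to 7.21 and 2.56 to 6.40. KLK3, which encodes prostate-specific antigen, differed between clones of each group, at 8.66, 10.30 and 10.44 in knockdown clones, against 8.67, 10.12 and 8.48 in control clones. Array medians lay between 6.31 and 6.33. Knockdown clones 2 and 3 were the most alike pair (SD of their difference over genes 0.185, against 0.224 to 0.350 for other pairs), and no pair of arrays was identical. Knockdown clone 1 stood further from knockdown clones 2 and 3 (0.316 and 0.350) than from control clones 1 and 2 (0.310 and 0.273). Its values also spread less over genes (SD 2.00, against 2.05 to 2.07 in the other arrays).

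In the 3 knockdown clones the means of 8 of the 9 pathway genes stood below the control means, as did 51.3% of all genes. ME1, NQO1 and GCLM differed most, at 62.9%, 66.4% and 67.7% of the control level. None of the 9 passed limma's test at an adjusted p under 0.05, and neither did any other gene (0%). At an unadjusted p under 0.05, 3 of the 9 were lower (GCLM, NQO1 and ME1) and 0 higher, against 5.45% lower, 3.93% higher and 9.39% in either direction (1568 genes) among all genes. The knockdown clones all lay below the controls in 4 of the 9 (those 3 and SRXN1) and all above them in 0, against 8.87% and 6.57% of all genes. The median log2 fold change was -0.40 over the 9 genes and -0.0043 over all genes. It was -0.22 without control clone 1 and -0.23 without knockdown clone 3. In bulk RNA, less RNA per cell and fewer cells expressing a gene cannot be told apart.

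**Figure D1:**
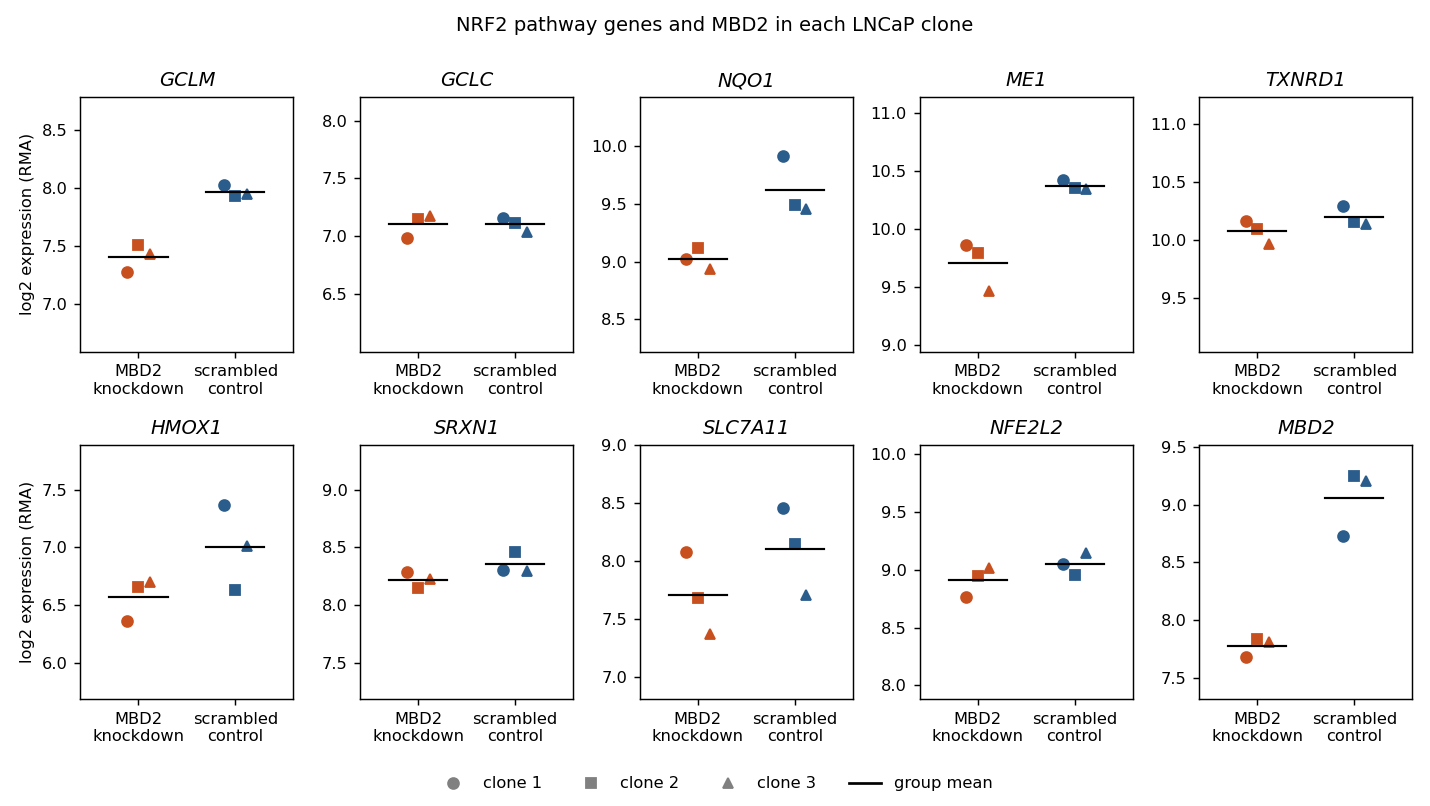
Log2 expression (vertical axis, the same span in every panel) of the 9 pathway genes and MBD2 in 3 MBD2 knockdown clones (orange, left) and 3 scrambled control clones (blue, right). Marker shapes give the clone number and bars the group means; the groups are apart in GCLM, NQO1, ME1, SRXN1 and MBD2.

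The promoters are shown because the pathway is read through a short DNA element there. RefSeq promoter windows of build GRCh38.p14, from 250 bases before to 50 bases after a transcription start, were matched for 7 of the 9 genes, all but HMOX1 and SLC7A11. The core of the antioxidant response element, TGACNNNGC, was searched on both strands. GCLM, ME1 and TXNRD1 held it, that is 3 of 7 genes, and 4 of the 9 windows of the 7 genes. Among all genes with a window 16.1% held it, and 13.3% of all 35116 windows. The GCLM window, chr1:93909381-93909680 on the minus strand, holds 1 core, read on the opposite strand and beginning 34 bases before the start. The invariant letters of the core are in capitals:
GCLM promoter: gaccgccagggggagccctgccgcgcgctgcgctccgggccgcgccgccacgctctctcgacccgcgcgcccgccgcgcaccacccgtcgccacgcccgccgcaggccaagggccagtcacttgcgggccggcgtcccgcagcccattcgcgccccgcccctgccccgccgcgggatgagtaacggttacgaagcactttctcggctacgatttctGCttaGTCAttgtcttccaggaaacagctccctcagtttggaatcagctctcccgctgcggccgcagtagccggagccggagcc

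The matching stretches of ME1 and TXNRD1 allow the cores of a gene with a large difference and of one with a small difference to be set beside that of GCLM. ME1 is shown at chr6:83431159-83431209 on the minus strand, and TXNRD1 at its downstream start, chr12:104286909-104286959, and its upstream start, chr12:104215659-104215709, both on the plus strand:
ME1: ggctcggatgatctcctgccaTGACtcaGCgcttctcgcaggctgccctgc
TXNRD1 downstream start: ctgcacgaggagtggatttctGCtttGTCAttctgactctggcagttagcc
TXNRD1 upstream start: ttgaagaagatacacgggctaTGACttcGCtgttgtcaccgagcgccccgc
The core of ME1 overlaps the letters TGANTCA of an AP-1 site, which 7.71% of all windows hold, while that of GCLM does not. ME1 and the upstream TXNRD1 window each hold 1 more core. The windows of GCLC, NQO1, SRXN1 and NFE2L2 hold no match, which says only that these letters are not in these 300 bases. A match is a description of the sequence, and binding was not measured here.

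MBD2 binds methylated CpG dinucleotides, so the CpG content of the same windows was counted. The GCLM window holds 41 CpG dinucleotides, where 94.2% of all windows hold as many or fewer, and that of SRXN1 holds 46. ME1 has 30, GCLC 32 and the NFE2L2 windows 39 and 35, while NQO1 has 14 and the TXNRD1 windows 27 and 12. The median was 32 over the 9 windows of these genes and 14 over all windows. In order of their highest count, the log2 fold changes were -0.13 for SRXN1, -0.56 for GCLM, -0.14 for NFE2L2, 0.0014 for GCLC, -0.67 for ME1, -0.12 for TXNRD1 and -0.59 for NQO1. Methylation of these windows was not measured here.

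Glutathione synthesis is represented by both subunits of glutamate-cysteine ligase, which joins glutamate and cysteine in the limiting step, and by the transporter that brings in cystine. GCLM encodes the modifier subunit, which makes the catalytic subunit more active. Its log2 values were 7.28, 7.51 and 7.43 in knockdown clones 1, 2 and 3, against 8.02, 7.93 and 7.95 in control clones 1, 2 and 3. Every knockdown clone lay below every control, and the gap between the groups exceeded the range within either. The knockdown mean was 7.40 ± 0.12 and the control mean 7.97 ± 0.05 (SD, n = 3 each). The log2 fold change was -0.56 (SE 0.09, 95% interval -0.77 to -0.36, limma adjusted p = 0.229). GCLM ranked 20 by p among all genes. An exact two-sided permutation test of its 6 values gave p = 0.1, the smallest that 3 against 3 allows. The same test gave 0.1 for NQO1, ME1 and SRXN1, whose groups do not overlap either.

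GCLC encodes the catalytic subunit, and its groups coincided. It had 6.99, 7.15 and 7.18 in knockdown clones, against 7.16, 7.11 and 7.04 in control clones. The log2 fold change was 0.0014 (SE 0.09, limma adjusted p = 0.998), with a 95% interval of -0.20 to 0.20. The subunits were also compared with each other, a comparison chosen after their values were seen. The GCLM value minus the GCLC value, taken within each array and centred on the controls, stood at -0.58, -0.50 and -0.61 in knockdown clones, against 0.0024, -0.047 and 0.045 in control clones. The groups did not overlap (-0.56 ± 0.06 in knockdown against 0 ± 0.05 in control, SD, n = 3 each, exact two-sided permutation p = 0.1, the smallest possible).

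SLC7A11, the cystine/glutamate antiporter, supplies the cysteine for this step. Its log2 values were 8.07, 7.68 and 7.37 in knockdown clones 1, 2 and 3, against 8.46, 8.15 and 7.71 in control clones 1, 2 and 3. Knockdown clone 1 lay above control clone 3, so the groups overlapped, and the clones of each group spread more widely than the group means differed. Between the groups the log2 fold change was -0.40 (SE 0.23, 95% interval -0.93 to 0.14, limma adjusted p = 0.648). It was -0.22 without control clone 1 and -0.23 without knockdown clone 3. SLC7A11 is also a target of ATF4, the transcription factor of amino acid shortage. The 20 measured ATF4 and serine or cystine pathway genes averaged 0.12, -0.07 and -0.23 on the log2 scale, with the control mean at 0, in knockdown clones 1, 2 and 3, against 0.17, 0.05 and -0.22 in control clones 1, 2 and 3, the same order of clones within each group as in SLC7A11. Their part in the SLC7A11 values was not tested.

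Thioredoxin and peroxiredoxin recycling is represented by TXNRD1 and SRXN1. TXNRD1, the cytosolic selenoenzyme that reduces thioredoxin with NADPH, had 10.16, 10.09 and 9.97 in knockdown clones, against 10.29, 10.15 and 10.14 in control clones. Its groups overlapped, with a log2 fold change of -0.12 (SE 0.09, 95% interval -0.33 to 0.09, limma adjusted p = 0.734). Dropping knockdown clone 3 gave -0.069, and dropping control clone 1 gave -0.073. SRXN1, sulfiredoxin, rescues peroxiredoxins that have been overoxidised. It had 8.29, 8.15 and 8.23 in knockdown clones, against 8.31, 8.46 and 8.30 in control clones. The knockdown clones were all lower, but knockdown clone 1 and control clone 3 nearly coincided. The log2 fold change was -0.13 (SE 0.09, 95% interval -0.33 to 0.07, limma adjusted p = 0.691), and -0.080 without control clone 2.

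NQO1 and HMOX1 detoxify quinones and haem. NQO1, which reduces quinones to hydroquinones and is the classic NRF2 marker enzyme, had 9.03, 9.12 and 8.93 in knockdown clones 1, 2 and 3, against 9.91, 9.49 and 9.46 in control clones 1, 2 and 3. All knockdown clones were lower, and control clone 1 was high among the controls. The log2 fold change was -0.59 (SE 0.13, 95% interval -0.90 to -0.28, limma adjusted p = 0.274), and -0.44 without control clone 1. HMOX1, which opens the haem ring and releases iron, carbon monoxide and biliverdin, had 6.36, 6.66 and 6.70 in knockdown clones, against 7.36, 6.63 and 7.01 in control clones. Control clone 2 lay below knockdown clones 2 and 3. The log2 fold change of HMOX1 was -0.43 (SE 0.19, 95% interval -0.86 to 0.0082, limma adjusted p = 0.540), with -0.25 when control clone 1 was left out.

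ME1, cytosolic malic enzyme, makes NADPH from malate and had the largest difference of the 9. Its log2 values were 9.86, 9.79 and 9.47 in knockdown clones 1, 2 and 3, against 10.43, 10.36 and 10.34 in control clones. The controls lay close together and above every knockdown clone, of which clone 3 was the lowest. The knockdown mean was 9.71 ± 0.21 and the control mean 10.38 ± 0.04 (SD, n = 3 each). This is a log2 fold change of -0.67 (SE 0.11, 95% interval -0.94 to -0.40, limma adjusted p = 0.229). ME1 and GCLM passed the threshold when arrays were weighted by their variability (adjusted p = 0.0297 and 0.0285), a setting that gave knockdown clone 1 a weight of 0.252 and knockdown clone 2 one of 3.43, and under which 325 genes passed.

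**Figure D2:**
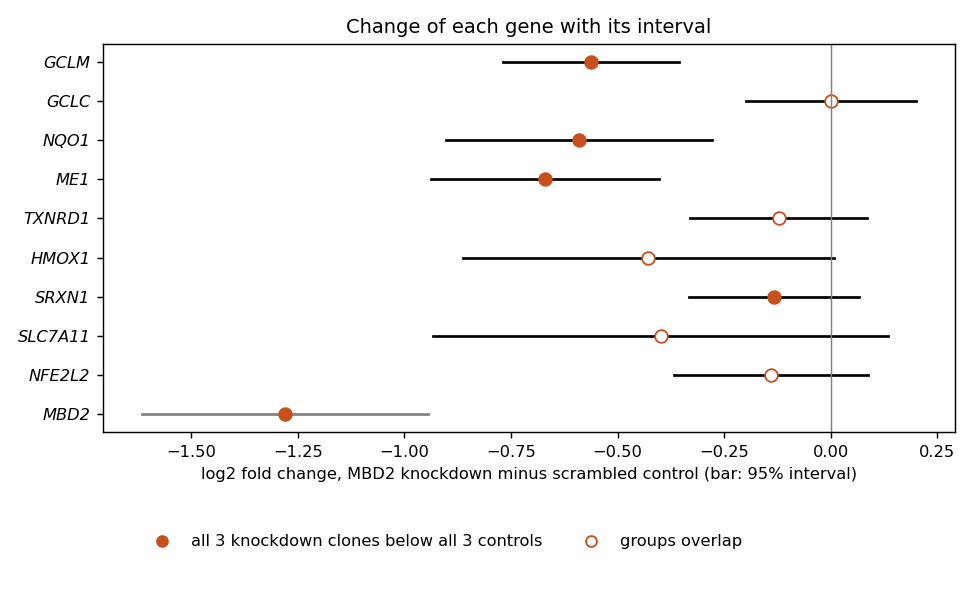
Log2 fold change of the 9 pathway genes and MBD2, MBD2 knockdown minus scrambled control, on the horizontal axis, with 95% intervals from limma as bars (3 clones per group). Filled points mark genes whose 3 knockdown clones all lay below the 3 controls; the intervals of GCLM, NQO1, ME1 and MBD2 do not reach 0, those of the other 6 do, and no gene passed after adjustment.

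NFE2L2, the transcription factor itself, had 8.77, 8.95 and 9.02 in knockdown clones, against 9.05, 8.96 and 9.15 in control clones. The groups overlapped, with a log2 fold change of -0.14 (SE 0.10, 95% interval -0.37 to 0.09, limma adjusted p = 0.719). Dropping knockdown clone 1 brought it to -0.068, and dropping control clone 3 to -0.092. NRF2 is controlled largely through its protein, which these arrays do not measure. The 95% intervals of all 9 genes excluded a change of 1 log2 unit in either direction.

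The knockdown clones were alike in their average over the 9 genes, but differed in which genes stood lowest. Averaged over the 9 genes, the clones deviated from the controls by -0.33, -0.30 and -0.39 in knockdown clones 1, 2 and 3, against 0.13, -0.06 and -0.08 in control clones 1, 2 and 3. That is -0.34 ± 0.05 in knockdown and 0 ± 0.12 in control (SD, n = 3 each), and -0.31 ± 0.05 against 0 ± 0.13 without GCLM. Knockdown clone 1 had the lowest GCLM, HMOX1 and NFE2L2 values of the 3, with deviations of -0.69, -0.64 and -0.28. In knockdown clone 3, ME1, SLC7A11 and NQO1 were lowest, at -0.91, -0.74 and -0.68. Among the controls, clone 1 stood high in HMOX1 (0.36), SLC7A11 (0.35) and NQO1 (0.29).

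**Figure D3:**
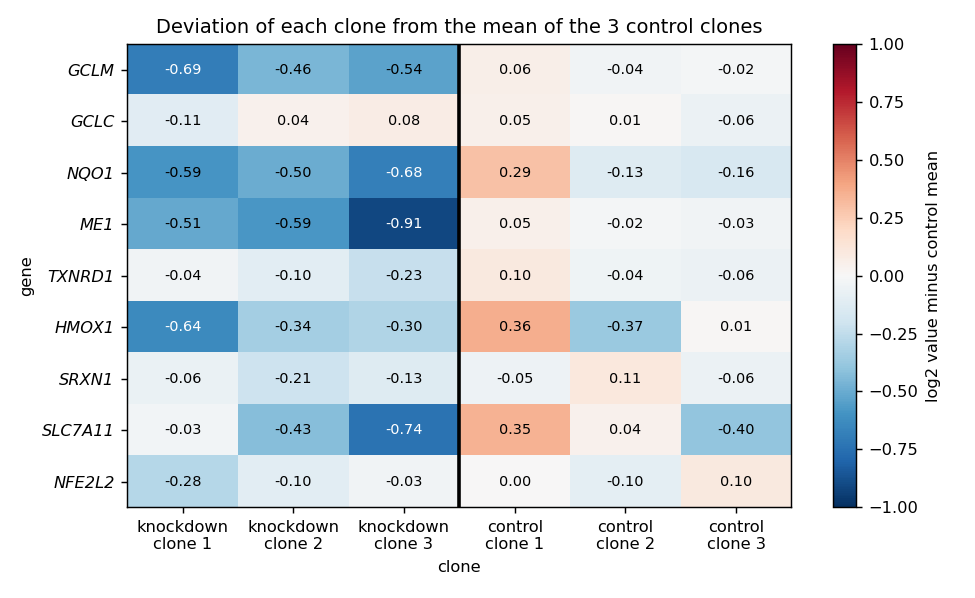
Log2 value minus the mean of the 3 control clones, for each of the 9 genes (rows) in 3 MBD2 knockdown clones (left of the line) and 3 scrambled control clones (right); blue is lower and red higher. GCLM, NQO1 and ME1 are between -0.46 and -0.91 in all knockdown clones, while HMOX1 and SLC7A11 vary widely among the controls as well.

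The regulators around NRF2 had a median log2 fold change of -0.02 over 13 measured genes of 14 listed, 8 lower and 5 higher. At an unadjusted p under 0.05 there was 1 in each direction, and 0 passed limma's adjusted threshold. Over all genes 5.45% were lower and 3.93% higher at that cutoff, and 51.3% had a lower mean. The counts of this list and of those below are to be read beside these shares. Some genes are in more than 1 of the lists and are counted in each. KEAP1, the inhibitor of NRF2, had 8.89, 8.95 and 9.05 in knockdown clones, against 8.90, 8.92 and 8.91 in control clones, a log2 fold change of 0.05 (SE 0.08, limma adjusted p = 0.876), with 0.091 without knockdown clone 1 and 0.011 without knockdown clone 3. RBX1, the RING subunit of the ligase that KEAP1 serves, had 7.83, 7.89 and 7.88 in knockdown clones, against 8.12, 8.05 and 8.11 in control clones (log2 fold change -0.23, limma adjusted p = 0.401). NFE2L1, the related factor NRF1, had 9.37, 9.70 and 9.77 in knockdown clones, against 9.06, 9.28 and 9.43 in control clones (0.36, limma adjusted p = 0.480), with 1 overlapping pair.

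Other NRF2 targets lay on either side of 0. Of 27 measured of 32 listed, 18 were lower and 9 higher, with a median of -0.08. At an unadjusted p under 0.05, 4 were lower and 1 higher, against 5.45% and 3.93% of all genes. None (0) passed limma's adjusted threshold. The knockdown clones all lay below the controls in 7 of the 27 and all above in 1, against 8.87% and 6.57% of all genes. Those counts were 2 and 0 of 13 regulators, 3 and 1 of 15 glutathione genes, and 5 and 2 of 23 in the peroxidase list. They were 4 and 0 of 12 haem genes, 2 and 2 of 15 in the NADPH list, 1 and 1 of 12 superoxide genes, and 1 and 0 of 20 in the ATF4 list. ABCB6, a porphyrin transporter, had 7.62, 7.56 and 7.46 in knockdown clones, against 7.83, 7.81 and 7.89 in control clones, a log2 fold change of -0.29. ABCC1, an exporter of glutathione conjugates, had -0.22, with all knockdown clones below all controls. Their limma adjusted p values were 0.338 and 0.405.

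Among glutathione genes outside the 9, 8 of 15 measured were lower and 7 higher (median -0.03), with 2 lower and 1 higher at an unadjusted p under 0.05 and 0 past limma's adjusted threshold. CHAC2, which breaks down glutathione, had 6.04, 6.31 and 6.10 in knockdown clones, against 6.90, 6.57 and 6.46 in control clones (log2 fold change -0.49, limma adjusted p = 0.338). GLRX2, a glutaredoxin, lay the other way, with 9.41, 9.86 and 10.18 in knockdown clones, against 9.14, 9.38 and 8.98 in control clones (0.65, limma adjusted p = 0.393). The groups of each gene did not overlap, which the choice of genes by smallest p makes likely, here and in the other lists.

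The list of glutathione peroxidases, peroxiredoxins and thioredoxins had 13 of 23 members lower and 10 higher (median -0.07). At an unadjusted p under 0.05 there were 2 in each direction, and 0 passed limma's adjusted threshold. TXN, lower, and GPX2, higher, are among those 2 in each direction and were also counted with the other NRF2 targets. TXNIP, which binds and inhibits thioredoxin, showed a larger difference than any of the 9, with 9.44, 8.68 and 9.43 in knockdown clones, against 7.44, 8.06 and 8.15 in control clones. All knockdown clones lay above all controls (log2 fold change 1.30, SE 0.26, limma adjusted p = 0.229). GPX8, a peroxidase of the endoplasmic reticulum, had -0.28 with an adjusted p of 0.404 by limma.

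Of the genes of haem synthesis, breakdown and transport 9 of 12 measured were lower and 3 higher (median -0.09), with 1 lower and 0 higher at an unadjusted p under 0.05. BLVRA, biliverdin reductase, which acts on the product of HMOX1, had 8.90, 8.94 and 8.59 in knockdown clones, against 9.39, 9.14 and 9.35 in control clones. Its knockdown clones all lay below the controls (log2 fold change -0.49, SE 0.12, limma adjusted p = 0.315). ALAD, of haem synthesis, had 0.31 with overlapping groups (limma adjusted p = 0.571).

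Among 15 other enzymes of NADPH supply and the pentose phosphate pathway, of which TALDO1, TKT, RPIA and PGLS do not make NADPH themselves, 9 were lower and 6 higher (median -0.10), with 0 lower and 1 higher at an unadjusted p under 0.05. The 1 was ALDH1L2, a mitochondrial folate enzyme, with 4.45, 4.80 and 4.68 in knockdown clones, against 4.12, 4.02 and 3.85 in control clones (log2 fold change 0.65, limma adjusted p = 0.229). Its level was under the lower quartile of the array (4.68 to 4.81) in all control clones and in knockdown clones 1 and 3. MTHFD1, a cytosolic folate enzyme, had -0.36 (limma adjusted p = 0.545). ME2 and ME3, the mitochondrial malic enzymes, chosen after their values were seen, had -0.28 and 0.02 beside -0.67 for ME1, all with overlapping groups except ME1.

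Superoxide and peroxide handling had 5 of 12 members lower and 7 higher (median 0.02), with 0 in either direction at an unadjusted p under 0.05. DUOX2, an oxidase that makes hydrogen peroxide, and SOD3, extracellular superoxide dismutase, had 0.15 and 0.13. The cystine, serine and ATF4 list had 14 of 20 lower and 6 higher (median -0.11), again with 0 at an unadjusted p under 0.05. SLC3A2, the partner chain of SLC7A11 at the cell surface, had 9.62, 9.24 and 9.31 in knockdown clones, against 9.66, 9.59 and 9.65 in control clones (log2 fold change -0.24, limma adjusted p = 0.561), and VLDLR, a lipoprotein receptor, had 0.25. In the haem, NADPH, superoxide and ATF4 lists 0 genes passed limma's adjusted threshold.

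Several of these list medians moved when a single array was left out. The NADPH median was -0.0035 without control clone 1, and that of the ATF4 list was -0.013 without knockdown clone 3, -0.024 without control clone 1, -0.20 without knockdown clone 1 and -0.20 without control clone 3. For the regulators it was -0.0045 without knockdown clone 1, -0.0050 without control clone 1 and -0.048 without control clone 2. The glutathione and superoxide medians crossed 0 without knockdown clone 1, at 0.035 and -0.021. The peroxidase list had -0.038 without knockdown clone 3 and -0.043 without control clone 2, and the haem list -0.14 without control clone 3. After cyclic loess the regulator and glutathione medians were 0.0074 and 0.0016, and with array weights the glutathione and superoxide medians were 0.016 and -0.013. With the dimmest 30% of genes left out, the superoxide median was -0.00014.

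**Figure D4:**
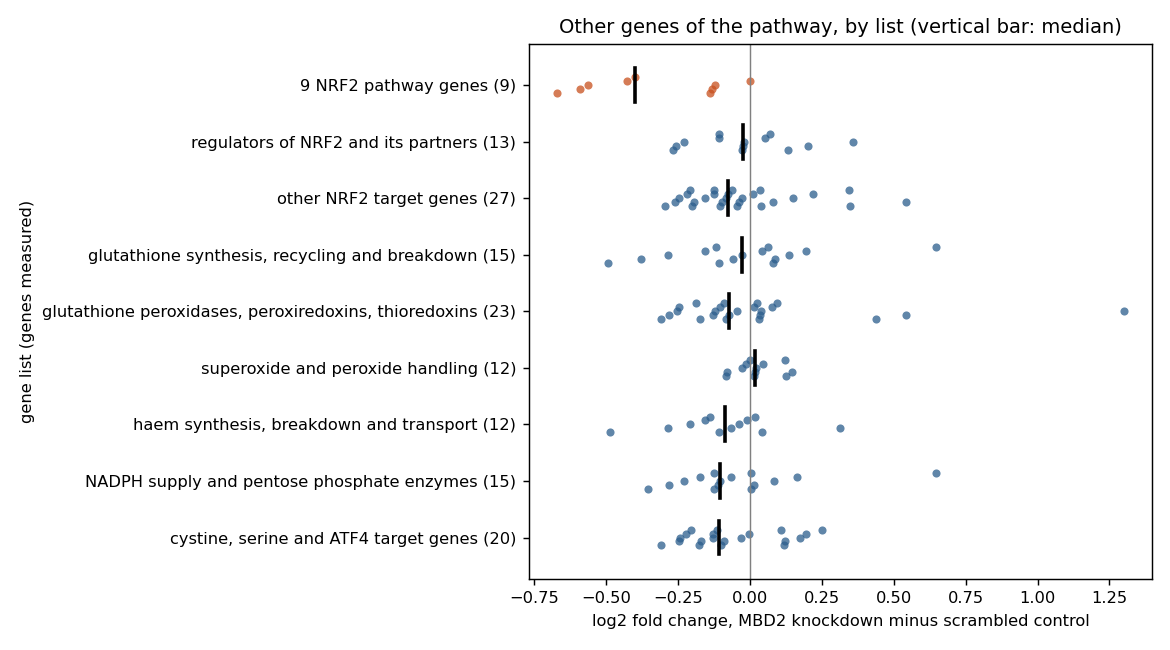
Log2 fold change, MBD2 knockdown minus scrambled control (horizontal axis, 3 clones per group), of the 9 pathway genes (orange) and of 8 lists of related genes (blue), 1 point per measured gene, with list medians as bars and points shifted vertically for legibility. A gene in more than 1 list has a point in each. In the deposited values the median of the 9 genes is -0.40 and those of the lists lie between -0.11 and 0.02. TXNIP is the point at 1.30.

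Genes with a pattern most like that of a pathway gene were found by the root mean square difference of log2 values over the 6 arrays, each gene centred on its own mean. This was done for the 5 genes whose values spanned at least 0.5 log2 units. Nearest to GCLM were PIP4K2A, B2M and STRADB (0.04, 0.06 and 0.07 log2 units). NQO1 had SPC25, SGO1 and KIF15 nearest (0.06, 0.07 and 0.08), and ME1 had CENPW, ARHGAP11A and H2AC16 (0.03, 0.08 and 0.08). For HMOX1 they were SLC6A11, MLF1 and ASPM (0.08, 0.09 and 0.10), and for SLC7A11 they were GINS4, CHML and H4C2 (0.08, 0.09 and 0.10). CENPW, the closest of all, had 7.10, 6.99 and 6.73 in knockdown clones, against 7.69, 7.59 and 7.52 in control clones.

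Under the 14 other ways of processing, GCLM kept a log2 fold change between -0.61 and -0.48, NQO1 between -0.67 and -0.44, and ME1 between -0.75 and -0.55. These 3 genes had an unadjusted p under 0.05 in each of them. The share of all tested genes under that cutoff ran from 6.51% without knockdown clone 3 to 19.9% with array weights. Every setting reuses the same arrays, in which these 3 genes already passed that cutoff in the main fit. Their recurrence is therefore not independent evidence.

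**Figure D5:**
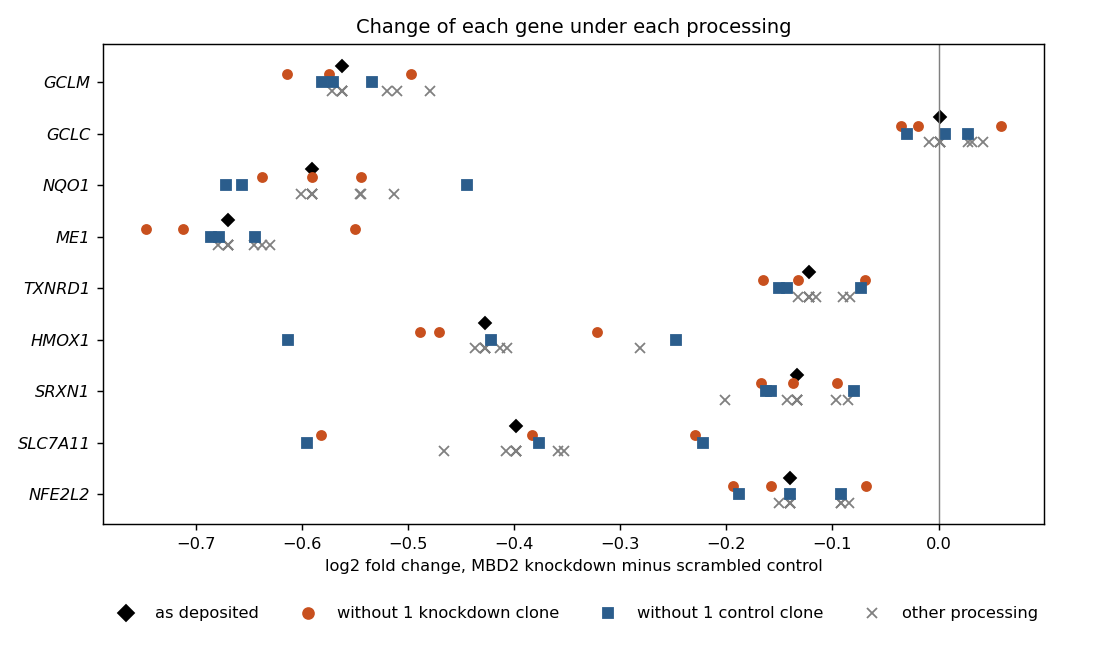
Log2 fold change of each of the 9 genes, MBD2 knockdown minus scrambled control (horizontal axis), as deposited (black), without 1 knockdown clone (orange), without 1 control clone (blue) and under other processing (grey). GCLM, NQO1 and ME1 stay at or below -0.44, while GCLC lies on either side of 0, from -0.036 to 0.059.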

How the data were processed

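Per the labels, cytoplasmic RNA was isolated with Trizol and labelled with biotin. The authors deposited log2 values per array feature, and the submitters' processing notes name RMA, oligo and limma; their versions, and any filter, were not stated there. The log2 scale was taken from the range of the values. Of 19712 features 17334 carry 1 gene symbol, and 1 feature per gene was used, that with the highest mean, leaving 16704 genes. Knockdown was compared with control across all genes with limma 3.58.1 (lmFit and eBayes, no trend, no covariates) in R 4.3.3, with Benjamini-Hochberg adjustment and a threshold of 0.05. No filter on dim genes was used. The members, gene lists and tests were chosen with earlier results of these data known. Beside the 9 genes, MBD2 and KEAP1, the 2 genes with the smallest p of each list and the 3 nearest patterns are named, and further genes where the text says so. The fit was tested on simulated data with independent noise, the same in every array. Of 200 changed genes among 16704, 89.1% of those changed 2-fold were recovered. Smaller changes, like those of the 9 genes, were not simulated. In the measured arrays MBD2, at 2.43-fold, did not pass (limma adjusted p = 0.111). The measured arrays also differed in variability, with array weights from 0.252 (knockdown clone 1) to 3.43 (knockdown clone 2). The simulated share can therefore not be taken as the recovery in these clones. Over all genes, same-numbered clones did not deviate together (correlations -0.03, -0.19 and 0.17), so their numbers were not taken as pairs in the main fit. SLC7A11 and the average of the ATF4 list did keep the same order of clones in both groups. A replicate block was among the alternatives described below. Promoter sequences are from RefSeq.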

Additional observations from a re-analysis of the deposited data

How the results depend on the processing

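The alternatives were 3 further normalizations (centring on the median, quantile, cyclic loess), dropping the dimmest 30% of genes, a robust eBayes with trend, array weights, a replicate block, averaging a gene's features, and leaving out each array. With array weights 325 genes and 2 of the 9 passed in limma (GCLM and ME1), and the median of the 9 was -0.28. In that setting 5 of the 9 had an unadjusted p under 0.05, as did 19.9% of all genes, against 9.39% in the main fit. Quantile normalization and cyclic loess let 1 gene pass each, which was none of the 9. Leaving out 1 array let 0 to 70 genes pass (70 without knockdown clone 1, 7 without control clone 1) and 0 of the 9, with medians of the 9 between -0.42 and -0.22. GCLC, at 0.0014, had -0.0086 after centring and -0.036 to 0.059 without 1 array. With the replicate block 0 genes passed and no call by adjusted p changed. SLC7A11 then joined GCLM, NQO1 and ME1 at an unadjusted p under 0.05, with a limma adjusted p of 0.338. That made 4 of the 9, against 9.43% of all genes. SRXN1 had -0.086 after cyclic loess and -0.20 with array weights, NFE2L2 -0.092 after quantile normalization, -0.092 after cyclic loess and -0.084 with array weights. KEAP1 had 0.10 after either normalization. Dropping 1 array gave as little as 0.085 for DUOX2, 0.048 for SOD3, 0.18 for ALAD and 0.16 for VLDLR, and -0.54 for MTHFD1. MBD2 had a limma adjusted p of 0.0138 under weighting, where ALDH1L2 and MTHFD1 passed too, of 0.0179 when the first control was dropped and of 0.0498 when the first knockdown clone was. The cause of these shifts was not tested. DUOX2 and ALDH1L2 gave no value with dim genes left out.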
